A study of Caenorhabditis elegans with 40 samples.

Results

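The genes described here are the chemoreceptor GPCRs of C. elegans, serpentine receptors named by family (str, the sr families, and odr-10). They were taken as every gene of the deposited table of unique molecular identifier (UMI) counts whose name is str- or one of the sr prefixes followed by a number, together with odr-10. This gave 55 of the 11933 genes of the table. The Ensembl annotation of the same genome build, WBcel235, holds 1299 protein-coding genes under these names, of which the 53 placed by name make up 4.08%. The remaining names, srbc-69 and sre-25, are listed as pseudogenes by RefSeq. The names alone chose the genes among those of the table, and which genes the table holds depends on counts, as given below.

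RNA of whole animals was profiled at 5 stages, the larval stages L1, L2, L3 and L4 and the young adult (YA), in 2 groups per stage with 4 biological repeats each, 40 libraries in all. Males were dpy-28(y1);him-8(e1489) animals. In this strain the him-8 mutation raises the share of XO males, and the temperature-sensitive dpy-28 allele disrupts dosage compensation, which kills most XX animals and spares males. Hermaphrodites were of the wild-type strain N2. All animals were raised at 25 °C, and every male library is of the mutant strain and every hermaphrodite library is N2: sex cannot be separated from strain in these data. Each library pooled many whole worms. Some XX animals of the male strain survive with impaired movement, and male cultures were enriched at L1 by keeping the larvae that crawled to food, so a few XX animals may remain in the male libraries. Libraries were made by bulk MARS-seq, which reads the 3′ end of transcripts and tags every captured molecule with a UMI. Totals ran from 1724365 to 14129759 UMIs per library (median 5616412). Levels are given as CPM, the UMIs of a gene scaled to a library total of 1000000. L1 male libraries held 1724365 to 3812947 UMIs and L1 hermaphrodite libraries 5500782 to 14129759.

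Chemoreceptor GPCRs are membrane proteins of the cilia of sensory neurons, where they detect odours, tastes and pheromones and signal through G proteins to cyclic GMP or to TRPV channels. C. elegans has a very large repertoire of them, and many of its receptors are made in only a few neurons, so that little of their RNA is present in a whole-animal sample. The families fall into the Str, Sra and Srg superfamilies and a group of solo families. In libraries of whole animals, fewer cells of a type and less RNA per cell cannot be told apart.

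The gene with the most counts here, srj-49, was also followed by the study with RT-PCR. By qPCR the study reported srj-49 mRNA as high in males and missing from hermaphrodites of every stage. UMIs of srj-49 were counted in hermaphrodites here, as given below. The study detected no SRJ-49 signal with a fosmid reporter of green fluorescent protein or with a reporter edited into the gene. The values below are of RNA. The primer pair is shown because it is the sequence with which the study assayed this transcript. The primers carry no marked bases.

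srj-49 forward primer: cactggaaacaaaaattcgatcttg
srj-49 reverse primer: tcaagcttttgcattatcaatcgt

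The forward primer has 25 bases, of which 36% are G or C, and the reverse primer 24 bases, of which 33.3% are. Both are written 5′ to 3′, and srj-49 lies on chromosome V.

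Counts of these genes were low. Over the 40 libraries the 55 genes held 17517 UMIs, 0.00793% of all UMIs, and srj-49 held 11440 of them (65.3%). The median total of a gene was 49 UMIs, 41 genes had fewer than 100, and 55.5% of the pairs of gene and library were at 0. Every gene of the deposited table has at least 6 counts in one library, and this holds for each of the 55. The highest count of 33 of them fell in an L1 hermaphrodite library, the group that was sequenced most deeply, and for 31 of these in replicate 1 or 2. The part of depth in which genes the table holds was not tested.

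By superfamily, Str was represented by 22 genes with 13985 UMIs, Sra by 8 with 834, Srg by 10 with 511 and the solo families by 15 with 2187. The srh family had the most genes in the table, 7 of 218 annotated, followed by srd, srw and str with 5 each of 64, 109 and 190. The small srr family had 3 of 9. Chromosome V, which carries 881 of the annotated names, held 29 of the genes, chromosome IV held 11, chromosome II held 8, III and X held 2 each and I held 1.

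**Figure D1:**
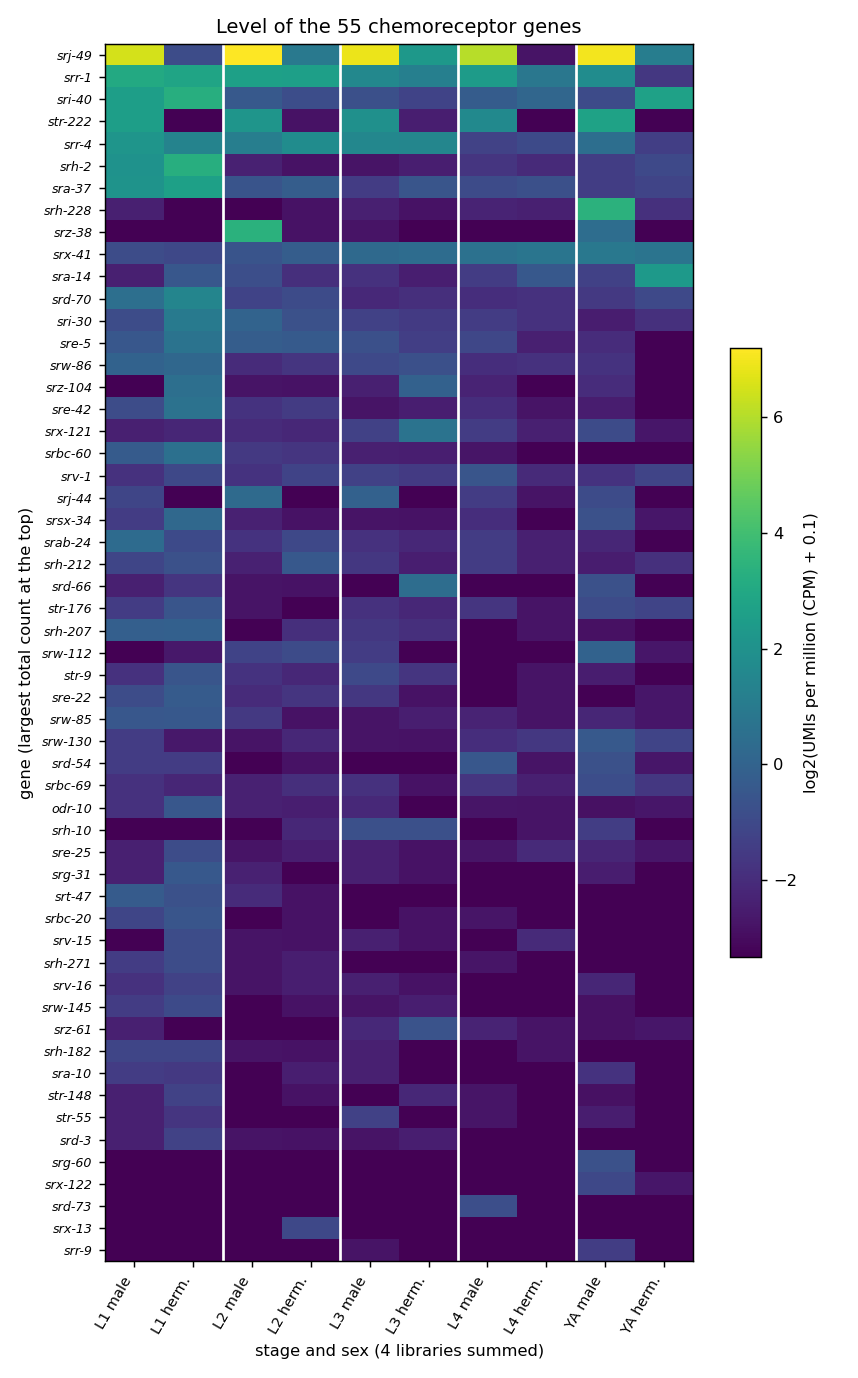
Level of each of the 55 genes (rows, largest total count at the top) in each stage and sex (columns, males left of hermaphrodites at each stage), as log2 of CPM plus 0.1 with the 4 libraries of a group summed. srj-49 is bright in every male column, str-222 is brighter in every male column than in any hermaphrodite column, and 26 of the 55 genes have their highest level in L1 hermaphrodites. Genes enter the table by a high count, which for 33 of the 55 fell in an L1 hermaphrodite library, so the number 26 was in part fixed by that entry. The share over all genes is not given here.

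Of the 55 genes, 10 passed the filter on low counts and were tested: sra-14, sra-37, srd-70, srh-2, sri-40, srj-49, srr-1, srr-4, srx-41 and str-222. The filter keeps a gene that is high in only a few libraries, so these 10 are no sample of the family. Among them str-222 was high enough for the filter only in male libraries and sra-14 only in YA hermaphrodites. The genes sra-37, srd-70 and srh-2 were high enough only at L1. A difference that sets those libraries against others was in part fixed by the filter. A gene was called where edgeR's quasi-likelihood test gave an adjusted p of at most 0.05 over all 8110 genes tested, an absolute log2 difference of 1 or more, and a mean normalized count not below 5. Differences are males minus hermaphrodites on the log2 scale. Higher in males were 2 of the 10 in each of the L1, L2 and L3 comparisons and 3 of the 10 in each of the L4 and YA comparisons. Of all genes tested, 3.3% were called higher in males at L1, and the share was 0.481% in L2 animals, 7.62% in L3 animals, 13.8% in L4 animals and 22.3% in YA animals. Higher in hermaphrodites was 1 of the 10 at YA (21.8% of all genes tested). At the 4 larval stages edgeR called 0 of the 10 higher in hermaphrodites, where 2.92%, 0.21%, 0.925% and 14.1% of all genes were, and DESeq2 also called 0. At an unadjusted p under 0.05, edgeR had 3 such genes at L1 (sra-14, srh-2 and sri-40) and 0 at the later larval stages. In either direction the calls over all genes came to 6.23%, 0.691%, 8.55%, 27.9% and 44.1% from L1 to YA. Over the stages, 4 of the 10 genes (srj-49, str-222, srr-1 and sri-40) were called at 1 or more, as were 59.1% of all genes. The median log2 difference of the 10 genes was -0.23 for L1, 0.29 for L2, 0.09 for L3, -0.14 for L4 and -0.45 for YA, beside medians over all genes tested of -0.14, 0, 0.03, 0.05 and -0.00.

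Both genes called in males before L4, srj-49 and str-222, were called at all 5 stages. Of all 8110 genes, 9 (0.111%) were called higher in males at every stage.

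srj-49 encodes a receptor of the srj family of the Str superfamily and lies on the reverse strand of chromosome V at 2846250 to 2848340, with 5 exons in the annotation. Over the 4 libraries of a group its UMIs summed to 1015 in L1 males and 15 in L1 hermaphrodites. The sums were 3057 in L2 males and 43 in L2 hermaphrodites, and 2627 in L3 males and 115 in L3 hermaphrodites. They were 1249 in L4 males and 1 in L4 hermaphrodites, and 3281 in YA males and 37 in YA hermaphrodites. In no stage did the libraries of the sexes overlap.

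At L1 the male libraries held 49.3, 83.4, 107 and 98.4 CPM of srj-49, against 0, 0.706, 1.09 and 0.561 in the hermaphrodite libraries. The log2 difference was 7.33 ± 0.54 (SE; adjusted p = 6.31e-13 by edgeR). At L2 males had 144, 135, 137 and 167 CPM and hermaphrodites 1.88, 2.23, 1.25 and 2.09, a log2 difference of 6.29 ± 0.48 (adjusted p = 2.59e-12). The male level was thus already present in the earliest stage sampled and lay above every hermaphrodite library. At L3 males had 110, 103.8, 131 and 122 CPM and hermaphrodites 4.98, 5.83, 4.63 and 3.32, the smallest log2 difference of the 5 stages, 4.54 ± 0.43 (adjusted p = 5.78e-10). At L4 males had 68.6, 74.9, 56.8 and 59.9 CPM and hermaphrodites 0.156, 0, 0 and 0. With a single count in L4 hermaphrodites, the ratio of the summed levels was 1450 with an exact 95% counting interval of 260 to 57400, and the fitted log2 difference of 9.98 depends on the prior count of the fit.

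At YA males had 117, 151, 122 and 115 CPM of srj-49, against 5.65, 0, 0 and 6.51 in hermaphrodites, a log2 difference of 5.51 ± 0.48 (adjusted p = 2.94e-12). The 37 UMIs of YA hermaphrodites came from replicates 1 and 4 alone, with 14 and 23. The same 2 libraries held 71.0 and 62.0 CPM summed over a list of genes of male-specific structures, against 1043 to 1295 in YA males and 6.61 and 8.37 in YA hermaphrodite replicates 2 and 3. Of the 10 genes of that list 7 are in the table, and all 6 that could be tested were called higher in males at L4 and at YA; ram-5, named for the morphology of the male tail rays, was at 0 in all 4 YA hermaphrodite libraries. The same libraries held 3560 and 3455 CPM summed over sperm genes, against 9781 to 10937 in YA males and 385 and 512 in the other YA hermaphrodite libraries. Without replicates 1 and 4 of YA hermaphrodites the log2 difference of srj-49 was 12.6, fitted against libraries with no srj-49 count. The summed level of the male list was 283 to 367 CPM in L3 males and 14.5 to 24.1 in L3 hermaphrodites, and 2805 to 3801 in L4 males and 11.9 to 16.3 in L4 hermaphrodites. Its part in the srj-49 counts of hermaphrodites was not tested.

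**Figure D2:**
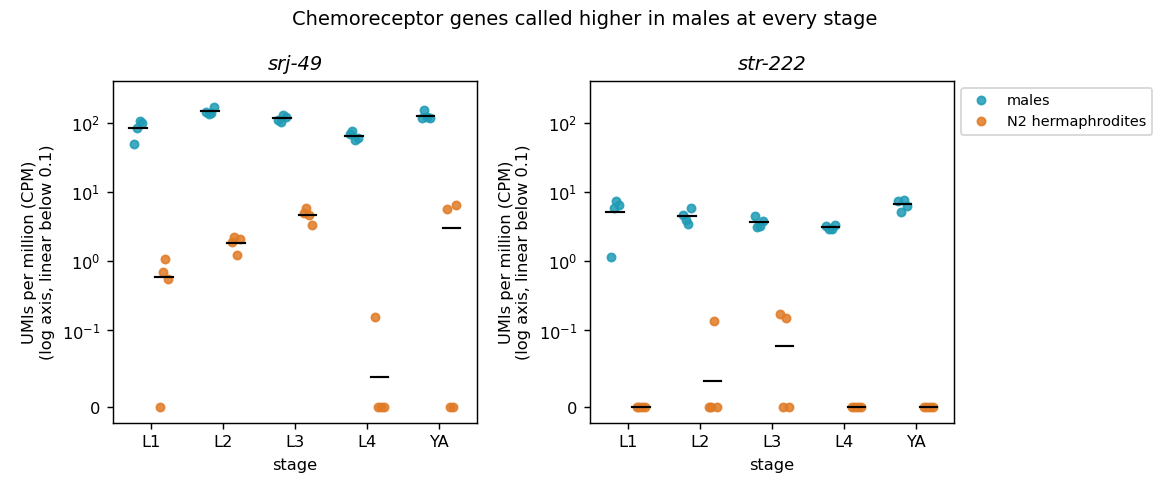
CPM of srj-49 and str-222 in each library (points) by stage, males left of N2 hermaphrodites, with the group mean as a bar, on a log axis that is linear below 0.1. At every stage the 4 male libraries of both genes lie above all 4 hermaphrodite libraries, and hermaphrodite srj-49 is highest at L3 and in 2 of the 4 YA libraries.

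Across stages srj-49 changed in both sexes. In males it rose between L1 and L2 (log2 difference, later minus earlier, 1.31 ± 0.37, adjusted p = 0.00617 by edgeR) and no other step was called. Its mean level in males from L1 to YA was 84.6 ± 25.5, 146 ± 14.8, 117 ± 12.2, 65.1 ± 8.26 and 127 ± 16.7 CPM (SD, n = 4 here and below). The tests scale libraries by edgeR's TMM method and the CPM means do not, so the 2 can order stages differently. In the fit the largest difference between male stages was that of L2 and L1, 1.31, although the CPM mean was lowest at L4. In hermaphrodites the means were 0.589 ± 0.452, 1.86 ± 0.434, 4.69 ± 1.04, 0.0391 ± 0.0781 and 3.04 ± 3.53 for the same stages. Hermaphrodite libraries of L2 were higher than those of L1 (2.34 ± 0.61), those of L3 higher than those of L2 (1.57 ± 0.48) and those of L4 lower than those of L3 (-6.18 ± 0.88). The step to YA was also called (5.31 ± 1.00) and rests on replicates 1 and 4, since the other YA hermaphrodite libraries had no count. The sex difference of srj-49 changed with stage (interaction, adjusted p = 0.000153; 51.3% of all genes tested were called in this test).

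srj-44 is an annotated neighbour of srj-49 on the same strand, at 2844563 to 2845871 of chromosome V, 379 bases away on its 3′ side. It had 64 UMIs in all, too few to pass the filter, and all but 1 of them were in males. The sums were 4, 24, 19, 5 and 11 in males at L1, L2, L3, L4 and YA, against 0, 0, 0, 1 and 0 in hermaphrodites. At L2, where it was highest, the 4 male libraries had 5, 6, 9 and 4 UMIs and the hermaphrodite libraries none, a level at least 8.97-fold higher in males against a floor of 3 counts over the group. With no filter on low counts, edgeR gave srj-44 an adjusted p of 0.00552 at L2 and 0.00282 at L3, and it was not called there, its mean normalized count being 1.60. Most counts of both genes were in males. srj-44 had 24 UMIs beside 3057 of srj-49 in L2 males, and whether reads of one gene were counted for the other was not tested. Other srj genes annotated within 10 kb, srj-45, srj-50, srj-55 and srj-57, are not among the genes of the table.

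str-222, a str family receptor with 6 exons on the forward strand of chromosome V at 1636159 to 1639281, was nearly silent in hermaphrodites. It had 65, 91, 84, 58 and 170 UMIs in males at L1, L2, L3, L4 and YA, against 0, 1, 2, 0 and 0 in hermaphrodites. The male libraries had 1.16, 5.86, 7.34 and 6.46 CPM at L1, 4.61, 3.92, 3.44 and 5.79 at L2 and 4.54, 3.08, 3.19 and 3.84 at L3. Male libraries of L4 had 3.20, 2.93, 2.88 and 3.30, and those of YA 7.33, 5.05, 7.65 and 6.36. Hermaphrodite libraries reached at most 0.172 CPM, in replicate 1 of L3. The gene passed the filter only by its male libraries.

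Against a floor of 3 counts over the group, str-222 was at least 65.8-fold higher in males at L1, at least 22.5-fold at L4 and at least 38.5-fold at YA. At L2 the ratio of summed levels was 102 (exact 95% counting interval 17.9 to 4080) and at L3 it was 45.4 (12.2 to 381). Adjusted p by edgeR was 1.57e-09, 5.41e-08, 1.04e-07, 1.93e-08 and 5.53e-10 for the stages in order. The stage test in males gave an adjusted p of 0.0406 with a largest difference between stages of 0.996 on the log2 scale, under the size that was called, and the interaction gave 0.209. When all libraries were thinned to the smallest total, str-222 passed the adjusted p at each stage (0.000137, 0.000928, 0.00286, 0.000737 and 6.67e-06 from L1 to YA) and was not called, its mean count then being under 5. The nearest tested gene, Y46H3D.1, 3218 bases away, was called higher in males at L3 (log2 difference 2.98) and YA (2.51).

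**Figure D3:**
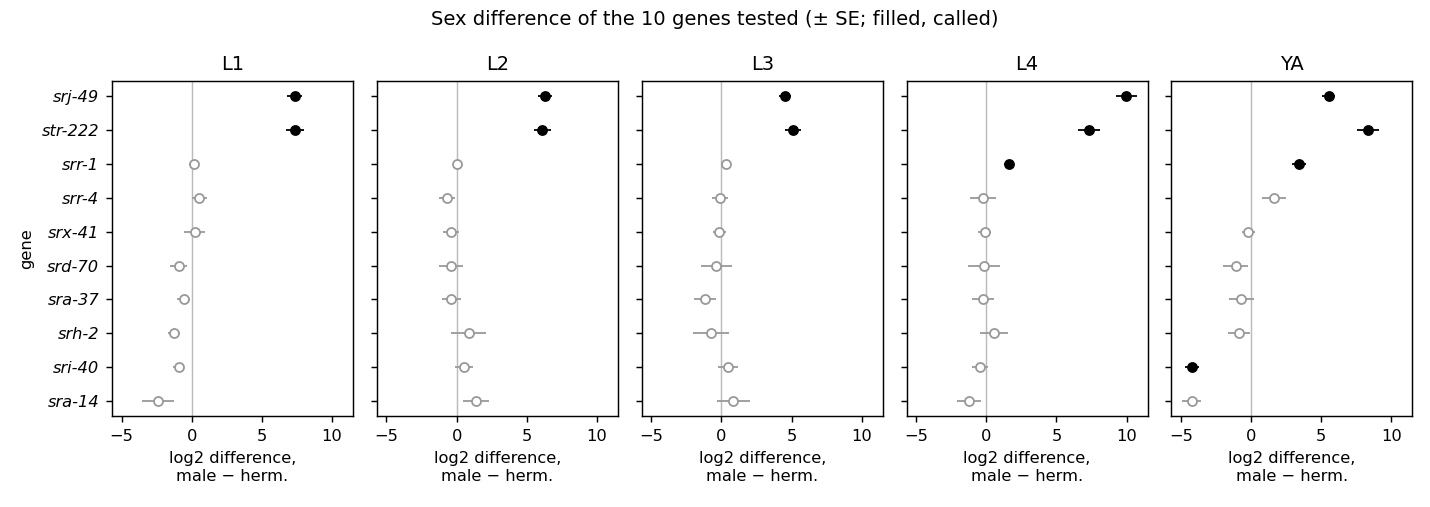
Log2 difference, males minus hermaphrodites, of the 10 genes tested at each stage, with the standard error as a bar; filled points were called. srj-49 and str-222 are filled at every stage, srr-1 at L4 and YA and sri-40 at YA, while sra-14 lies as far to the left as sri-40 at YA and is open.

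srr-1, of the solo srr family, lies on the reverse strand of chromosome V at 13049730 to 13053735 with 9 exons, and an intron overlaps the noncoding gene F42E8.3. It was called higher in males at L4 and YA and at no earlier stage. At L1 it had 6.96, 7.32, 7.87 and 9.55 CPM in males, against 7.29, 6.21, 8.73 and 5.89 in hermaphrodites, and the libraries overlapped (log2 difference 0.13 ± 0.29). At L4 it had 5.07, 6.84, 3.65 and 5.58 in males, against 2.03, 1.88, 1.49 and 1.39 in hermaphrodites (1.62 ± 0.33, adjusted p = 0.000158). At YA it had 3.21, 3.12, 3.74 and 3.26 in males, against 0.403, 0, 0 and 0.849 in hermaphrodites (3.41 ± 0.48, adjusted p = 1.07e-07). At L4 and YA no library of one sex reached those of the other.

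The level of srr-1 was also followed from stage to stage within each sex. At L3 relative to L2, hermaphrodite levels fell by 1.19 ± 0.31 (log2), which was called, and the male difference was -0.96 ± 0.30 (adjusted p = 0.0229). At L4 relative to L3, the male difference was 0.97 ± 0.31 (adjusted p = 0.0117) and the hermaphrodite difference -0.36 ± 0.34 (adjusted p = 0.457). At YA relative to L4, the male difference was -0.77 ± 0.30 (adjusted p = 0.0471), and hermaphrodite levels fell by 2.56 ± 0.52, which was called. These 3 male steps passed the adjusted p and were under the log2 size of 1 that was called. Means in males were 7.93 ± 1.15, 6.22 ± 1.23, 2.92 ± 0.343, 5.29 ± 1.32 and 3.33 ± 0.280 CPM from L1 to YA, and in hermaphrodites 7.03 ± 1.28, 5.96 ± 1.23, 2.19 ± 0.716, 1.70 ± 0.310 and 0.313 ± 0.405. The interaction of sex and stage was called (adjusted p = 1.54e-05). The 4 UMIs of YA hermaphrodites were in replicates 1 and 4, the libraries with more of the male list, and without them the log2 difference at YA was 7.37, fitted against no count.

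sri-40, a Str superfamily receptor on the forward strand of chromosome II at 3177963 to 3180478, showed the opposite sign. At YA males had 0.458, 0.149, 0.326 and 0.776 CPM, against 14.5, 5.32, 2.62 and 8.49 in hermaphrodites, with no overlap (log2 difference -4.23 ± 0.52, adjusted p = 7.29e-09). The sums were 11 UMIs in YA males and 111 in YA hermaphrodites. At L1 its level was also high, with 1.74, 5.86, 6.56 and 7.03 CPM in males against 4.67, 17.4, 11.5 and 9.4 in hermaphrodites, and there the libraries overlapped (-0.94 ± 0.41, adjusted p = 0.154). From L2 to L4 every group mean lay between 0.335 and 0.942. Between L1 and L2 the level in males fell by 2.44 ± 0.52, and the level in hermaphrodites fell by 3.9 ± 0.51 (log2), and between L4 and YA it rose by 2.96 ± 0.48 in hermaphrodites. No step after L2 was called in males, and the interaction was called (adjusted p = 1.65e-05). Thinned to the smallest total, the YA difference of sri-40 kept its sign (-4.68, adjusted p = 2.98e-06) and was not called, its mean count then being under 5.

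sra-14, a receptor of the Sra superfamily on the forward strand of chromosome II at 12885272 to 12888608, was also lower in YA males than in YA hermaphrodites in every library. Males had 0.153, 0.446, 0.163 and 0.465 CPM, against 2.02, 6.05, 5.58 and 3.96 in hermaphrodites, with no overlap (log2 difference -4.25 ± 0.65, adjusted p = 6.14e-07). It was not called because its mean normalized count, 4.78, is under 5, and it was called when that minimum was dropped or when YA was fitted alone. Before YA no group mean was above 0.596 CPM. The gene sra-14 passed the filter only by its YA hermaphrodite libraries, so its difference at YA was in part fixed by that entry. In hermaphrodites the highest levels were in replicates 2 and 3, not in the libraries that held more of the male list.

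srh-228 was seen almost only in YA males, in 3 of 4 libraries. It had 117, 2, 78 and 76 UMIs in the YA male replicates, against 0, 0, 0 and 3 in YA hermaphrodites, and at most 1 UMI in any library of the other stages. The ratio of the summed YA levels was 61.8 (exact 95% counting interval 20.9 to 301). YA male replicate 2 lay below replicate 4 of YA hermaphrodites, with 0.297 against 0.849 CPM. The gene failed the filter on low counts. Where it passed, it was called higher in YA males: with no filter (log2 difference 5.93), with a filter minimum of 3 counts (5.92), with DESeq2 (5.94) and without YA hermaphrodite replicates 1 and 4 (9.07). The name belongs to 2 annotated genes on chromosome IV, at 16339665 to 16341374 and 16342490 to 16344199, in opposite orientation, so the row cannot be assigned to either copy.

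**Figure D4:**
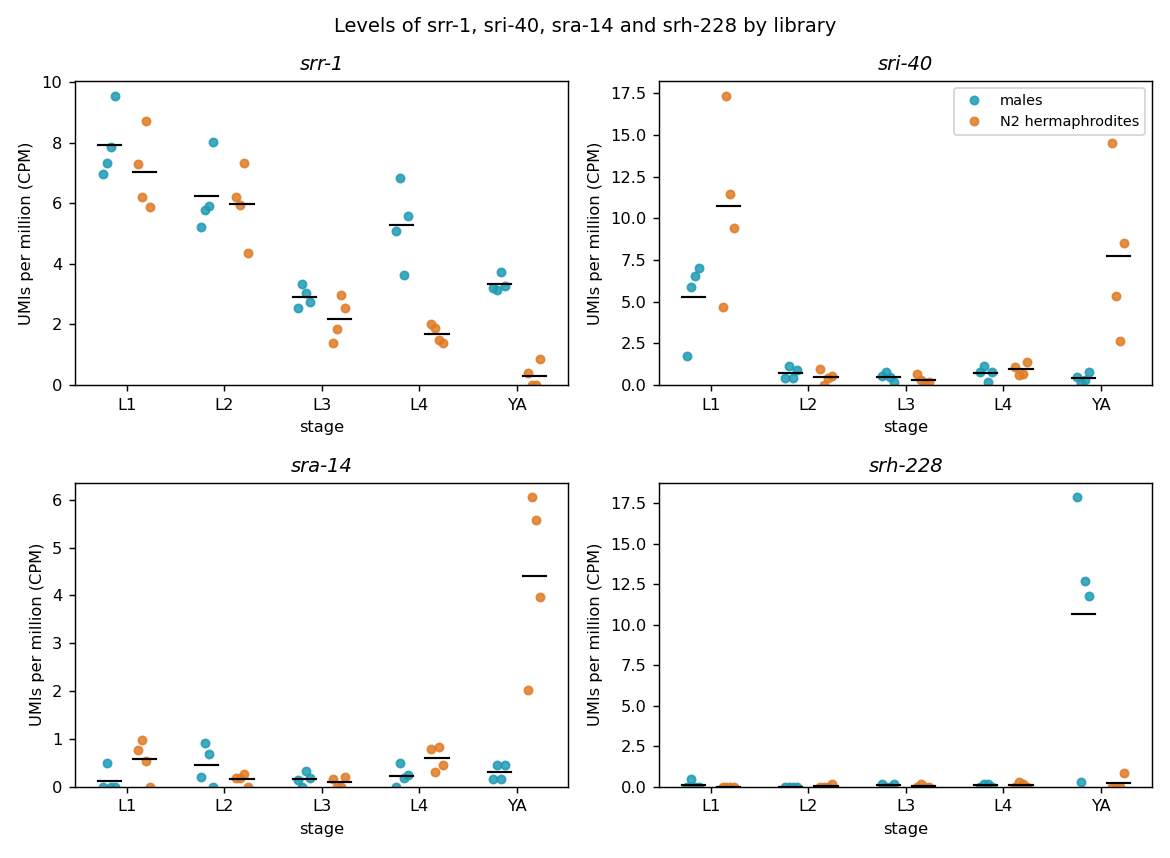
CPM of srr-1, sri-40, sra-14 and srh-228 in each library (points) by stage, males left of N2 hermaphrodites, with the group mean as a bar, each panel on its own linear axis from 0. YA males are above YA hermaphrodites for srr-1 and below them for sri-40 and sra-14, and 1 YA male library of srh-228 sits near 0 beside 3 between 11.8 and 17.9.

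Of the other genes that passed the filter, sra-37, srd-70, srh-2, srr-4 and srx-41, 0 were called between the sexes at any stage, by edgeR with the filter and all 40 libraries or by DESeq2, and 1 (srh-2 at L1) had an unadjusted edgeR p under 0.05. srh-2, at chromosome V 728301 to 734311 and overlapping the noncoding gene C05E4.16 on the same strand, was the one, and its male libraries had 5.80, 5.37, 2.10 and 4.21 CPM, against 7.29, 9.88, 10.9 and 11.9 in hermaphrodites. The libraries did not overlap, and the difference did not pass the test (log2 difference -1.25 ± 0.45, adjusted p = 0.0662). It was called when L1 male replicate 1, or replicate 1, 2 or 3 of YA hermaphrodites, was left out.

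The 5 stages of one sex were compared in a single F test. In males 6 of the 10 genes were called (sra-37, srh-2, sri-40, srj-49, srr-4 and srx-41), where 63.6% of all genes tested were. In hermaphrodites 7 of the 10 were called, these 6 and srr-1, where 79.5% of all genes were. Between L1 and L2 in males, 3 of the 10 fell (8.13% of all genes) and 1 rose (10.9%). Between L1 and L2 in hermaphrodites, 3 fell (15.4%) and 2 rose (14.7%). The 3 that fell were sra-37, srh-2 and sri-40 in both sexes. Of these, sra-37 and srh-2 passed the filter only by their L1 libraries, and sri-40 by those of L1 and of YA hermaphrodites. Their fall after L1 was thus in part fixed by the filter, and the shares of all genes are no measure for it. At later steps the calls over all genes were 15.6% up and 9.88% down between L3 and L4 in males. In hermaphrodites they were 7.99% up and 2.31% down between L2 and L3, 15.9% up and 7.71% down between L3 and L4, and 20.9% up and 23.6% down between L4 and YA. At these steps 1 of the 10 fell in males (srr-4). In hermaphrodites 1 rose and 1 fell between L2 and L3, 2 fell between L3 and L4, and 2 rose and 1 fell between L4 and YA.

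srh-2 was counted mostly at L1 in both sexes. It had 44 UMIs in L1 males and 318 in L1 hermaphrodites, and from L2 to YA no group had more than 7. Between L1 and L2 its level in males fell by 4.67 ± 0.74 (log2), and in hermaphrodites it fell by 6.77 ± 0.73. sra-37, on chromosome X at 13890809 to 13893356, averaged 4.06 ± 1.88 CPM in L1 males and 5.81 ± 0.991 in L1 hermaphrodites, and at most 0.790 in any later group. In males it fell by 2.22 ± 0.61, and in hermaphrodites it fell by 2.43 ± 0.54. The stage calls of srh-2 were lost without L1 hermaphrodite replicate 1, 3 or 4, and those of sra-37 without replicate 1, because the mean count then fell under 5. srx-41, a Srg superfamily receptor on chromosome V at 3634559 to 3637186, ran the other way. Its mean was 0.604 ± 0.553 in L1 males and 1.73 ± 0.473 in YA males, and 0.398 ± 0.195 in L1 hermaphrodites and 1.64 ± 0.438 in YA hermaphrodites. An exon of srx-41 overlaps F59B1.2 on the other strand, and whether strand was used in counting is not stated.

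srr-4, at chromosome V 5019224 to 5022363, was lower at L4 than at L3 in both sexes: in males it fell by 2.84 ± 0.77, and in hermaphrodites it fell by 2.72 ± 0.71 (log2). Males had 5.11, 2.06, 2.02 and 1.28 CPM at L3 and 0.801, 0, 0 and 0.761 at L4. Hermaphrodites had 2.92, 3.38, 2.24 and 2.34 at L3 and 0.156, 0, 0.827 and 0.462 at L4. Its stage call in males was lost without L4 male replicate 2 (adjusted p = 0.055). At YA males had 0.458, 3.72, 0.488 and 0.31 CPM and hermaphrodites at most 0.807, and the difference was not called (1.65, adjusted p = 0.101 by edgeR). srr-4 was called higher in YA males with no low-count filter, with a filter minimum of 3 counts and without L4 male replicate 2.

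The 45 genes that failed the filter are described mainly by their counts. Detection was broad and shallow. At least 1 UMI over the 4 libraries was found for 45 of the 55 genes in L1 males and 44 in L1 hermaphrodites, 40 and 46 in L2 males and hermaphrodites, 45 and 40 at L3, 36 and 33 at L4, and 45 and 26 at YA. After every library was thinned to 1724365 UMIs, the numbers were 38 in L1 males and 43 in L1 hermaphrodites, 26 and 30 at L2, 29 and 29 at L3, 31 and 20 at L4 and 34 and 21 at YA, males before hermaphrodites each time. With at least 3 UMIs required in the thinned libraries, the numbers were 24 in males and 31 in hermaphrodites at L1, 11 and 9 at L2, 12 and 12 at L3, 15 and 5 at L4 and 15 and 11 at YA. The order of the sexes at L2 thus turned with the minimum. Because a gene enters the table by its highest count, which for 33 of the 55 fell in an L1 hermaphrodite library, detection at L1 was in part fixed by that entry, and thinning does not undo it.

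Among these 45, the genes with at least 20 UMIs and at least 90% of their level in one sex were srh-228, srz-38 and srj-44, each in males (96.9%, 99.6% and 98.5% of the level over the groups). srz-38, a solo family receptor gene on chromosome IV at 16335337 to 16336503, had 252 UMIs, of which 212 (84.1%) were in L2 male replicate 2. The other L2 male libraries had 6, 0 and 0, and L2 hermaphrodites 0, 0, 1 and 0. In YA males it had 31, 1, 0 and 0 and in YA hermaphrodites none, and DESeq2, but not edgeR, called it higher in YA males. A count of 0 over the YA hermaphrodite libraries allows up to 0.171 CPM. Its male share therefore rests on 2 libraries. No gene reached 90% of its level in hermaphrodites with 20 or more UMIs.

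Other genes were also concentrated in single libraries. In 9 of the 55, at least 50% of the UMIs came from 1 library. srg-60 (13 UMIs in YA male replicate 2), srd-73 (9 in L4 male replicate 2) and srx-13 (9 in L2 hermaphrodite replicate 1) were each counted in 1 library alone. Because a gene enters the table with 6 counts in one library, such genes are in it by that library.

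odr-10 encodes the receptor for diacetyl of the AWA olfactory neurons and lies on chromosome X at 6864315 to 6865939. It had 34 UMIs in all. At L1 its libraries had 0, 1, 0 and 1 UMIs in males and 3, 10, 5 and 3 in hermaphrodites, means of 0.192 and 0.738 CPM. At YA it had 0, 1, 0 and 0 in males and 1, 0, 0 and 0 in hermaphrodites. In an exact two-sided permutation test of the 4 against 4 libraries, adjusted over the 5 stages, p was 0.357 at both L1 and L3 (0.143 unadjusted) and 1 at the other stages. The smallest unadjusted p this design allows is 0.0286, so a difference at a single stage could not pass 0.05 after the adjustment whatever the depth, and the test does not show that the sexes were alike.

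The summed level of the 55 genes was 130 ± 31.5 CPM in L1 males and 62.9 ± 14.2 in L1 hermaphrodites. It was 180 ± 22.4 in L2 males and 20.1 ± 1.11 in L2 hermaphrodites, and 135 ± 12.4 in L3 males and 19.2 ± 6.47 in L3 hermaphrodites. It was 82.2 ± 9.54 in L4 males and 8.08 ± 1.21 in L4 hermaphrodites, and 161 ± 12.4 in YA males and 21.7 ± 10.2 in YA hermaphrodites. The male libraries lay above the hermaphrodite libraries at each stage, and srj-49 made up most of the male sum. With TMM scaling the sums were 87.2 ± 17.5 in L1 males, 42.8 ± 4.10 in L1 hermaphrodites and 94.6 ± 9.77 in L4 males. Males were still above hermaphrodites at each stage, but the mean of L1 males was then below that of L4 males, with overlap.

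Without srj-49 the other 54 genes summed to 45.1 ± 7.02 CPM in L1 males and 62.3 ± 13.9 in L1 hermaphrodites, and the libraries overlapped. At L2 the males had 21.2, 70.6, 20.1 and 24.1 and the hermaphrodites 17.4 to 19.4, the high male library being the one with srz-38. At L3 the sums were 18.0 ± 2.89 in males and 14.5 ± 5.83 in hermaphrodites, with overlap. At L4 they were 17.2 ± 1.92 in males and 8.04 ± 1.23 in hermaphrodites, with no overlap. At YA they were 34.5 ± 10.5 in males and 18.7 ± 6.93 in hermaphrodites, with overlap. These sums are descriptions, and they were not tested. Those of L1 were in part fixed by which genes enter the table.

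**Figure D5:**
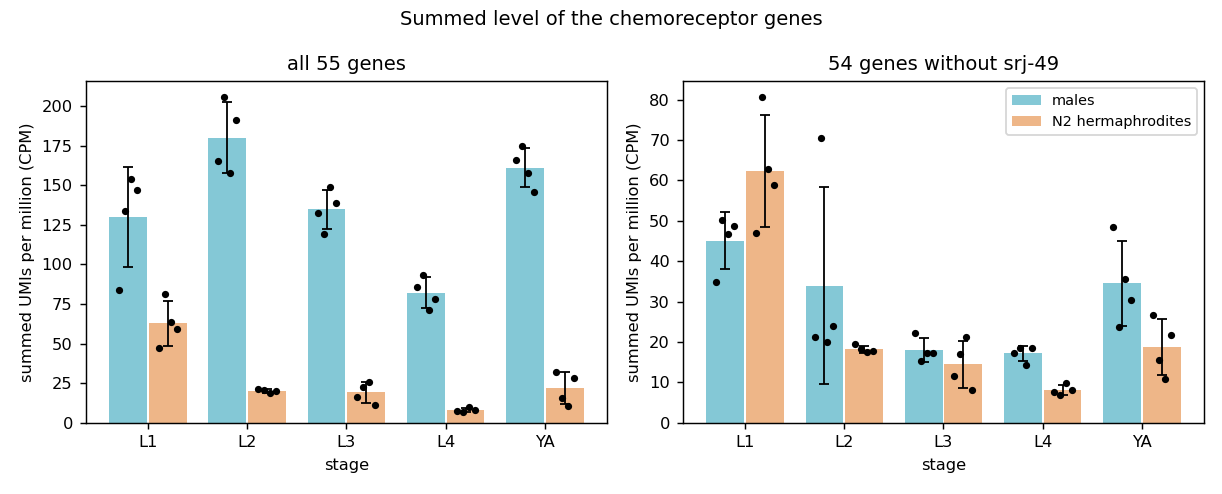
Summed CPM of all 55 genes (left) and of the 54 genes without srj-49 (right) by stage, males left of N2 hermaphrodites; bars are means, error bars SD over 4 libraries and points the libraries. With srj-49 every male library is above every hermaphrodite library of its stage, and without it L1 hermaphrodites have the highest mean, 62.3. That mean was in part fixed by which genes enter the table.

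Markers of the cells that carry these receptors also differed in level. Of a list of 30 genes of ciliated neurons, 19 are in the table and 14 were tested. Of the 14, 1 was higher in males at L3 (7.62% of all genes tested), 12 at L4 (13.8%) and 6 at YA (22.3%). Their median log2 difference was 1.38 at L4, where that of all genes was 0.05, and 0.77 at YA. The summed level of the list was 54.5 to 73.6 CPM in L4 males and 17.8 to 30.6 in L4 hermaphrodites, and 34.0 to 37.8 in YA males and 13.7 to 22.6 in YA hermaphrodites. At L1 it was 137 to 155 in males and 177 to 210 in hermaphrodites. Of 15 pan-neuronal genes, 11 were tested, and 1 was higher in hermaphrodites at L1 (2.92% of all genes), 2 were higher in males at L4 (13.8%) and 4 at YA (22.3%), among them rab-3, a synaptic vesicle GTPase (log2 difference 2.99 at YA). The part of these markers in the receptor levels was not tested.

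Genes of chemosensory signalling, receptor guanylyl cyclases and genes of receptor trafficking were followed as 4 lists. Of all genes tested, 13.8% were called higher in males and 14.1% in hermaphrodites at L4, and 22.3% and 21.8% at YA. Of 9 tested G protein subunits, 3 were higher in males and 1 in hermaphrodites at L4, and 1 and 1 at YA, a smaller share at YA than over all genes. egl-30, the Gq alpha subunit, had a log2 difference of 1.39 ± 0.18 at YA (80.8 ± 9.83 CPM in males, 26.5 ± 10.8 in hermaphrodites). The Gs alpha subunit gsa-1 (1.09 ± 0.26) and the G beta subunit gpb-1 (1.11 ± 0.32) were higher in males at L4. The G gamma subunit gpc-2 was higher in males at L4 (2.61) and in hermaphrodites at YA (-1.75), with wide spreads, 10.8 ± 7.18 CPM in L4 males and 12.7 ± 13.1 in YA hermaphrodites.

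Of 6 tested genes of channels and cyclic GMP, 1 was called, the phosphodiesterase pde-1 at YA (log2 difference 1.09 ± 0.26), where 44.1% of all genes were called in either direction. Of 8 tested receptor guanylyl cyclases, 1 was higher in males at L3 (7.62% of all genes), 2 at L4 (13.8%) and 2 at YA (22.3%), counts near these shares. gcy-23, a cyclase of the thermosensory neuron AFD, was higher in males at L4 (1.92 ± 0.74) and YA (2.20 ± 0.83), and gcy-21 at YA (2.28 ± 0.66). Of 11 tested genes of receptor trafficking and regulation, 2 were higher in hermaphrodites at L4 (14.1% of all genes), and at YA 4 were higher in males (22.3%) and 1 in hermaphrodites (21.8%). The calcineurin subunit tax-6 (1.64 ± 0.31) and the RGS protein eat-16 (1.70 ± 0.34) were higher in YA males. odr-4, needed to bring receptors such as ODR-10 to the cilium, was higher in hermaphrodites at L4 (-1.96 ± 0.44) and YA (-1.21 ± 0.47).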

How the data were processed

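Gene counts of 40 whole-animal libraries were analysed, 4 biological repeats for each of 5 stages and 2 sexes. By the study's methods, adapters were removed with cutadapt and the alignment to WBcel235 used STAR (version 2.4.2a). UMI duplicates were marked, genes were counted by HTSeq-count (union mode), and the authors deposited the UMI counts as whole numbers. The annotation release is not given. The deposited normalized signal (counts divided by DESeq2 size factors by the authors), the deposited log2 values (variance-stabilized by the authors, with and without ComBat) and the columns of the authors' own comparisons (fold changes and p-values) were not used. All 40 sample columns were placed by their labels.

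Genes were kept with filterByExpr (minimum count 10, minimum total 15), which left 8110 of 11933, and tested with edgeR 4.0.16 quasi-likelihood fits over 10 stage-by-sex groups with TMM scaling (R 4.3.3, limma 3.58.1), and p-values were adjusted by Benjamini and Hochberg's method. A gene was called past 3 limits: adjusted p 0.05, log2 difference 1 in size and mean normalized count 5. In the edgeR tests each gene had one estimate of the spread between repeats, shared by the 10 groups and moderated over genes. A p-value thus does not measure the spread of the compared groups alone. Levels are CPM without TMM scaling, and the log2 differences of edgeR are fitted with it. Libraries held 1724365 to 14129759 UMIs, and intervals and the floor of 3 counts cover counting error only. The members and lists were chosen with earlier results of these data known. Named genes were those called between the sexes, the receptors the study discusses and odr-10, the 10 with most counts, those with the smallest stage p, untested genes with 20 counts and 90% of their level in 1 sex, and up to 4 called genes of each signalling list. DESeq2 1.42.0, other scaling and filters, thinning, a replicate block and leaving out libraries were the alternatives. The labels state no pairing of the sexes. At L1 the deviations of same-numbered male and hermaphrodite libraries were correlated (0.136 to 0.587). Male replicate 2 of L1 correlated more with hermaphrodite replicate 4 (0.348). At later stages the same-numbered correlations ran from -0.289 to 0.230. The fits were also run on counts simulated from the genes that passed the filter. The outcome is not given here, and it does not cover the genes that failed the filter. Python 3.11.15, pandas 2.3.3, SciPy 1.17.1 and matplotlib 3.10.9 were used for summaries and figures.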

Additional observations from a re-analysis of the deposited data

Results flagged for a closer look

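In 8 of the 69 groups of 4 libraries with at least 20 UMIs of a gene, a single library stood far from the other 3. The limit used flags about 1 in 20 groups when values are normally distributed, which low counts with many zeros are not. Genes also enter the table by a high count in a single library. The 8 groups are therefore a description, and whether they exceed chance was not tested. srz-38 reached 48.9 CPM in L2 male replicate 2 and 4.73 in YA male replicate 1. srz-104 reached 3.18 in L1 hermaphrodite replicate 1 and 3.07 in L3 hermaphrodite replicate 2. In L3 hermaphrodite replicate 3, srx-121 reached 5.22 and srd-66 reached 4.33 CPM. srr-4 reached 3.72 in YA male replicate 2, and str-9 reached 0.849 in L1 hermaphrodite replicate 1.

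The sex difference changed over the stages for 3 receptors in the interaction test of edgeR. The adjusted p was 1.54e-05 for srr-1, called higher in males at L4 and YA, and 1.65e-05 for sri-40, called lower in males at YA. It was 0.000153 for srj-49, higher in males at every stage by differences of 4.54 to 9.98 on the log2 scale.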

How the results depend on the processing

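The calls of srj-49 and srr-1 between the sexes kept their direction and threshold under every alternative run. Thinned to the smallest library, str-222 lost its call at each stage and sri-40 at YA, the mean count then being under 5: males had 1 gene called at L1, L2 and L3 each, hermaphrodites 0 at YA, and the stage tests 2 in males and 2 in hermaphrodites. With L1 fitted alone 1 gene was called in males. YA males had 5 with no filter, with a minimum of 3 counts and with DESeq2, and 3 to 5 when single libraries were left out. Hermaphrodites at L1 had 1 (srh-2) without YA hermaphrodite replicates 1 and 4 and 0 to 1 when single libraries were left out. At YA hermaphrodites had 2 (sra-14 added) with no mean minimum or with YA fitted alone, and the male stage test had 10 with no filter. Without srj-49 the summed level was 45.1 in L1 males, 34.0 in L2 males, 18.2 in L2 hermaphrodites, 18.0 in L3 males, 17.2 in L4 males and 34.5 in YA males. With TMM scaling the sum of all 55 genes was 87.2 in L1 males and 94.6 in L4 males, the reverse of their order in CPM. Detected genes fell to 26 in L2 males, 30 in L2 hermaphrodites, 29 in L3 males and 20 in L4 hermaphrodites when thinned. At a minimum of 3 counts they were 24 in L2 males, 25 in L2 hermaphrodites, 27 in L3 males, 21 in L3 hermaphrodites, 14 in L4 hermaphrodites and 16 in YA hermaphrodites. The odr-10 difference at L4 was 0.0046 CPM with TMM and -0.000615 without; neither was past the test, and the cause was not tested.

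With DESeq2 size factors the median of all genes moved to 0.21 at L4 and 0.18 at YA. The calls over all genes were then 317 higher in males and 159 in hermaphrodites at L1 (268 and 237 with TMM), 1382 and 916 at L4 (1119 and 1147), and 2043 and 1490 at YA (1806 and 1767). With the replicate block the srj-49 difference at L1 was 7.32, and the block changed no call of the 10 receptors between the sexes, while over all genes it gave 215 higher in males and 196 in hermaphrodites at L1 and 1912 and 1567 at YA; the stage tests could not be fitted with it, since repeats are nested in stages. Low counts limit most of these genes: 45 of 55 failed the filter.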

Other observations

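srz-38 lies in a stretch of chromosome IV in which other genes were also counted mostly in single libraries. C35D6.4 had 86 UMIs in YA male replicate 2 and 103 in YA hermaphrodite replicate 1. C35D6.13, 518 bases from srz-38, had 51 in YA male replicate 3 and 23 in L2 hermaphrodite replicate 4. srz-104 had 45 in L1 hermaphrodite replicate 1 and 20 in L3 hermaphrodite replicate 2, and srz-61 had 13 in the same L3 library. srh-228, 3162 bases from srz-38 at its nearer copy, was high in 3 of the 4 YA male libraries.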
